A study of Mus musculus with 9 samples.

Results

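The response of Pan02 cells to hydrogen peroxide (H2O2) was read from 8 of the 9 arrays of the series, 4 from cells kept for 24 h in 100 μM H2O2 and 4 from cells kept in normal medium. Pan02 is a murine pancreatic ductal adenocarcinoma line. The arrays were chosen by their titles and pair off by line: Pan02OE carries a lentiviral open reading frame of murine Nlrx1 and Pan02OE-CTL the matching control open reading frame, while Pan02KD carries a lentiviral short hairpin RNA against Nlrx1 and Pan02KD-CTL a scrambled one. All lines were therefore transduced and selected, none of the 8 arrays is of unmodified Pan02 cells, and each line is a single transduced population with 1 array per medium. The remaining sample, a control RNA of the manufacturer, has no values in the deposited table. A p-value here measures the spread of the response between the 4 lines and not between repeated cultures of a line. All values are log2 signals of Clariom S mouse arrays, and a difference is H2O2 minus normal medium unless stated, so that a difference of 1 is 2-fold.

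H2O2 is a diffusible oxidant that modifies cysteines. In the best known response, oxidation of KEAP1 releases the transcription factor NRF2, which binds antioxidant response elements and turns on genes of glutathione and thioredoxin metabolism. Peroxiredoxins, glutathione peroxidases and catalase remove the oxidant, and sulfiredoxin (Srxn1) returns overoxidized peroxiredoxins to use. Oxidative DNA damage can activate p53 and repair genes, and oxidants can act on the MAP kinase and NF-κB pathways, which drive immediate early genes and chemokines. Many of these responses are transient, and here a single time and dose were measured.

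The gene targeted in these lines, Nlrx1, codes for a Nod-like receptor of the mitochondria. It read 17.31 in H2O2 and 17.10 in normal medium in Pan02OE, 6.90 and 6.89 in Pan02OE-CTL, 6.56 and 6.68 in the arrays labelled Pan02KD, and 6.4 and 5.96 in those labelled Pan02KD-CTL. Pan02OE stood far above the other lines in both media, but the arrays labelled Pan02KD were not below those labelled Pan02KD-CTL. The knockdown label was thus not borne out by this signal, which lay in the background range, and both names are used below only as labels. The study that made the arrays checked NLRX1 protein in the lines by western blot, which arrays do not measure. The difference of Nlrx1 over the 4 lines was 0.14 (95% interval −0.14 to 0.42). All 6 arrays of the other lines were under 7.48, the level of the brightest among 23 antigenomic background probe sets, where differences are hard to read, and 8787 of 19505 named genes (45%) had a line mean above that level. Of the markers of the labelled cell type, 8 of 11 ductal and epithelial and 8 of 8 mesenchymal genes were above it, against 0 of 9 leukocyte, 0 of 6 endothelial, 1 of 9 acinar and islet and 3 of 6 fibroblast genes. The medians of the 8 arrays lay between 6.51 and 6.58.

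The genes most often used to recognize an oxidant response were nearly level between the media. Hmox1, a heme oxygenase, read 13.78, 12.29, 13.91 and 15.18 in H2O2 in Pan02OE, Pan02OE-CTL, Pan02KD and Pan02KD-CTL, against 13.88, 12.43, 13.86 and 15.01 in normal medium in the same order, which is kept below. The lines differed from each other far more than the media did. The mean difference of Hmox1 was −0.01 (95% interval −0.25 to 0.24, limma, 4 lines). The catalytic and modifier subunits of glutamate-cysteine ligase, Gclc and Gclm, differed by 0.18 (−0.07 to 0.43) and 0.04 (−0.24 to 0.32), the cystine transporter Slc7a11 by 0.04 (−0.27 to 0.35) and thioredoxin reductase Txnrd1 by 0.06 (−0.20 to 0.33). Among the enzymes that act on the oxidants themselves, catalase (Cat) differed by 0.23 (−0.05 to 0.51), Prdx1 by 0.03 (−0.20 to 0.27), Gpx1 by 0.06, and the superoxide dismutases Sod1 and Sod2 by 0.11 (−0.12 to 0.35) and 0.13 (−0.12 to 0.39). The quinone reductase Nqo1 differed by −0.09 (−0.42 to 0.24). The highest upper bound given here is 0.51, so that a mean rise of 2-fold lies outside each of these intervals.

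Srxn1 was the member of this group with the largest difference, and it was lower in H2O2. It read 12.42, 11.40, 10.24 and 10.70 in H2O2, against 12.61, 11.24, 10.40 and 11.97 in normal medium. Pan02KD-CTL lay apart, with a difference of −1.27 beside −0.19, 0.15 and −0.16 in the other lines, and the mean over 4 lines was −0.37 (95% interval −0.83 to 0.10). Gclm read 11.78 to 12.53 in H2O2, against 11.87 to 12.26 in normal medium, and here Pan02KD-CTL went the other way, at 0.40 beside −0.09 to −0.07. The promoters of both genes hold an antioxidant response element, and they are shown because these are the genes for which an NRF2 response is usually looked for. The sequences are the 300 bases around the start of the gene in RefSeq (GRCm38.p6, plus strand), with the element (TGACNNNGC, on either strand) and the AP-1 motif (TGANTCA) in capitals. Srxn1 lies at chr2:152105274-152105573 and Gclm at chr3:122245307-122245606.
Srxn1: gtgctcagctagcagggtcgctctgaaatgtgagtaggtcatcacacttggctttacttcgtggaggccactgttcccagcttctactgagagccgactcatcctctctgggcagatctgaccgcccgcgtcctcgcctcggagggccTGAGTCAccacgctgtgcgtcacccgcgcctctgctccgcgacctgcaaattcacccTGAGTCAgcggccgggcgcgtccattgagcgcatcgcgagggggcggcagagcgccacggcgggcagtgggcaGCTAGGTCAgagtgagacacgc
Gclm: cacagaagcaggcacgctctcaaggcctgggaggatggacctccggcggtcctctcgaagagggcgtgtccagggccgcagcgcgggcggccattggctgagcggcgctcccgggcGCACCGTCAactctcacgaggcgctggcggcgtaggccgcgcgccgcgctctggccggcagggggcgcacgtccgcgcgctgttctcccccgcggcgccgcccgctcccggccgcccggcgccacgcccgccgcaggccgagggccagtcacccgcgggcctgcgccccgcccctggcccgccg
In Srxn1 the element lies on the minus strand near the end of the window, with a pair of AP-1 motifs before it, and in Gclm a single minus-strand element was found. A match describes only the letters.

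Over the whole list of NRF2 targets the 22 measured members had a median difference of 0.04 in the 4-line comparison, beside 0 for all 19505 genes, and the members ranged from −0.37 to 0.28. The list held 3 genes that read higher in H2O2 in all 4 lines, Gsr, Gstm1 and Aldh3a1, and 2 that read lower, Me1 and Ftl1. Over all genes 7.34% were higher and 7.52% lower in all 4 lines. The glutathione transferase Gstm1 differed by 0.14, 0.34, 0.43 and 0.21 and the aldehyde dehydrogenase Aldh3a1 by 0.30, 0.27, 0.31 and 0.12, and these 2 had an unadjusted p under 0.05, which 3.28% of all genes reached in that direction. Of the 16 NRF2 targets with a RefSeq promoter in the table, 4 (25%) held the antioxidant response element and 3 (18.8%) the AP-1 motif, against 12.4% and 7.81% of 32851 promoters. The 24 measured peroxide and thiol defence genes had a median of −0.01.

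Txnip was the gene of that list with the largest difference. It encodes the protein that binds and restrains thioredoxin and that responds to glucose. Its signal was 15.33, 15.84, 15.46 and 15.73 in H2O2, against 15.04, 15.82, 14.17 and 14.27 in normal medium. The H2O2 arrays lay close together, whereas in normal medium Pan02KD and Pan02KD-CTL lay below the other lines, so that the differences were 0.29, 0.02, 1.28 and 1.46. The mean was 0.76 (SE 0.23, 95% interval 0.25 to 1.28), with an adjusted p of 0.741. Sesn2, a stress-induced gene that restrains mTORC1, read higher in H2O2 in all 4 lines, by 0.14, 0.39, 0.25 and 0.52 (mean 0.33).

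No gene passed in the comparison of H2O2 with normal medium over the 4 lines. By limma with Benjamini-Hochberg adjustment 0 of 19505 genes (0%) reached an adjusted p under 0.05, and the smallest adjusted p was 0.263, for the predicted gene Gm9958. At an unadjusted p under 0.05 there were 1231 genes (6.31%), 639 higher and 592 lower, where 975 would have such a p if no gene differed. The sign of the difference was the same in all 4 lines for 2898 genes (14.9%), where unrelated signs would give 12.5%. These counts describe how closely the lines moved together, and few genes did so by a large amount.

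Grhpr and Ptdss2, enzymes of glyoxylate reduction and of phosphatidylserine synthesis, had the smallest p of the higher genes above background. Grhpr read 10.19, 11.78, 11.32 and 10.28 in H2O2, against 9.14, 10.79, 10.60 and 9.65 in normal medium. Each line was higher by 1.04, 0.99, 0.72 and 0.64, for a mean of 0.85 (SE 0.12, 95% interval 0.58 to 1.11, unadjusted p = 4.41e-05, adjusted p = 0.43 by limma over 4 lines). Grhpr was past the threshold only when limma's variance was moderated with a trend and robustly (adjusted p = 0.0362). Its RefSeq promoter held 0 antioxidant response elements, 0 AP-1 motifs and 0 cyclic AMP response elements (TGACGTCA). It held 5 matches to the NF-κB motif given below. Of all promoters 50.8% held that motif, whatever the number of matches in each, so the 5 has no reference here. Ptdss2 read 10.50, 10.95, 10.85 and 10.01 in H2O2, against 9.54, 9.60, 9.82 and 9.56 in normal medium, so that the H2O2 arrays all lay above the highest normal medium array. The mean difference was 0.95 (SE 0.15, 95% interval 0.62 to 1.28, adjusted p = 0.709), with Pan02KD-CTL the lowest at 0.45.

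The other genes with the smallest p in the higher direction were the kinesins Kif21a (0.63) and Kif21b (0.57), the actin regulator Evl (0.58), the scaffold Iqgap3 (0.73), the actin-associated adaptor Pstpip1 (0.49), the TAK1 partner Tab1 (0.54), the forkhead gene Foxn3 (0.57) and the histone gene H2bc21 (0.61). None of them passed. In the lower direction stood Krt80, a keratin, with 12.02, 11.61, 11.91 and 13.22 in H2O2, against 12.48, 12.19, 12.45 and 13.76 in normal medium. Its differences of −0.45, −0.58, −0.54 and −0.54 were alike in the 4 lines, and the mean was −0.53. The cytoskeletal linker Gas2l1 was as even (−0.56, −0.50, −0.63 and −0.47). Myd88, the adaptor of Toll-like and interleukin-1 receptors, differed by −0.75, −0.91, −0.58 and −0.23, a mean of −0.62. Also lower on average were the carbonyl reductase Cbr2 (−0.68), the neuropeptide precursor Vgf (−0.68), the Notch coactivator Maml1 (−0.51), the glycosyltransferase Gcnt4 (−0.55), Bcl6b (−0.54), Zscan4f (−0.72) and Ly6c1 (−1.04, from −0.28 in Pan02OE to −1.92 in Pan02OE-CTL), each with an adjusted p of 0.741.

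Leaving out Pan02KD-CTL, whose response stood apart, gave 1 called gene of 19505 (0.00513%) and 1128 (5.78%) at an unadjusted p under 0.05, 2.9% higher and 2.89% lower. The called gene was Gm9958, higher by 1.71 (SE 0.12, adjusted p = 0.0116, limma, 3 lines), with H2O2 signals of 6.02, 6.56 and 6.79 against 4.36, 4.76 and 5.13 in normal medium, all of them in the background range. In Pan02KD-CTL Gm9958 differed by 0.73. Ptdss2 averaged 1.11 in the 3 lines. With trend and robust moderation 8 genes passed in the 3 lines, 6 higher (Gm9958, Ptdss2, Grhpr, Psmg1, Fmnl1 and Tab1) and 2 lower (Myd88 and Phlda1). Some of the genes with the smallest p in the 3 lines had the opposite sign in Pan02KD-CTL. Psmg1, a proteasome assembly chaperone, differed by 0.74, 1.18 and 0.98 but by −0.18 in Pan02KD-CTL, the formin Fmnl1 by 0.80, 0.82 and 0.48 but by −0.48, and the interleukin-1 receptor antagonist Il1rn by −0.46, −0.67 and −0.48 but by 0.68.

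The lists of immediate early genes, chemokines and NF-κB components, all of growth factor and inflammatory signaling, had medians below 0, with no member of any list called. Without Pan02KD-CTL the medians were nearer to 0, at −0.07 in place of −0.17 for the immediate early and ERK-responsive genes, −0.03 in place of −0.06 for chemokines and cytokines and −0.12 in place of −0.18 for NF-κB components. The 20 other NF-κB targets had a median of 0.00, with 1 member higher (5%) and 2 lower (10%) in all 4 lines. Over all genes these shares were 7.34% and 7.52%. The 26 immediate early and ERK-responsive genes had medians of −0.09, 0.05, −0.19 and −0.42 in the single lines. In all 4 lines 0 members read higher and 4 lower (15.4%), Dusp1, Phlda1, Hbegf and Ereg. Of all genes 7.52% read lower in all 4 lines, and of genes above background 9.9%. Egr1, an early growth response factor, read 14.75, 15.57, 11.77 and 13.20 in H2O2, against 15.31, 15.52, 12.53 and 14.25 in normal medium, level in Pan02OE-CTL and lower elsewhere (mean −0.58). Phlda1 differed by −0.60, −0.35, −0.81 and −0.18, and the EGF receptor ligand Hbegf by −0.08, −0.19, −0.38 and −0.61. The phosphatase Dusp5, which acts on ERK, was level in the overexpression pair (0.01 and 0.02) and lower in the short hairpin pair (−0.93 and −0.65). Egr1, Phlda1, Hbegf and Dusp5 were the 4 list members at an unadjusted p under 0.05, a level that 3.04% of all genes reached in the lower direction.

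Of the 31 chemokine and cytokine genes, 7 read lower (22.6%) and 2 higher (6.45%) in all 4 lines, against 7.52% and 7.34% of all genes and 9.9% and 7.86% of genes above background. At an unadjusted p under 0.05 there were 8 lower and 1, Ccl8, higher, where 3.04% and 3.28% of all genes were. Those lower were the neutrophil chemokines Cxcl1 (−0.76), Cxcl2 (−0.60), Cxcl3 (−0.53) and Cxcl5 (−0.43), the monocyte chemokine Ccl2 (−0.32), and the cytokines Csf2 (−0.74), Il23a (−0.41) and Lif (−0.35). Cxcl2 was lower by 0.25, 0.46, 1.08 and 0.61 on the log2 scale. Cxcl1 read 7.20, 6.22, 6.82 and 6.78 in H2O2, against 8.10, 6.18, 7.67 and 8.10 in normal medium, so every H2O2 array and Pan02OE-CTL in both media lay in the background range. Csf2, which encodes GM-CSF, was 6.80, 5.32, 5.53 and 9.21 in H2O2, against 8.15, 5.34, 5.66 and 10.66 in normal medium. It was lower in Pan02OE (at least 1.6-fold) and Pan02KD-CTL (2.74-fold) and in the background range in the other lines. The list median was −0.06, and none of its members had an adjusted p under 0.05. Since these chemokines were also examined in the study that made the arrays, their choice was not independent of these samples.

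The 19 measured NF-κB components had a median of −0.18, with 7 lower (36.8%) and 1 higher (Ikbkg) in all 4 lines. Of all genes 7.52% were lower and 7.34% higher, and of genes above background 9.9% and 7.86%. At an unadjusted p under 0.05 (limma) 2 of the 19 were lower and 1 higher, where 3.04% and 3.28% of all genes were. Those lower throughout were the IκB family genes Nfkbib, Nfkbie and Nfkbiz, the kinase gene Ikbkb, the adaptors Traf6 and Tradd, and Tnfaip3, a deubiquitinase that limits the pathway. Tnfaip3 differed by −0.21, −0.22, −0.20 and −0.15 and Nfkbiz by −0.18, −0.31, −0.26 and −0.63. In Pan02OE-CTL 9 of the 19 members were above 0. The NF-κB motif searched (3 G, any 5 bases, then 2 C, on either strand) was found in 86.7% of the 15 promoters of these components matched in RefSeq, in 93.3% of 15 ERK-list, 61.9% of 21 chemokine and cytokine and 75% of 16 NRF2 target promoters, in 85.7% of 7 promoters of the higher genes and 50% of 6 of the lower genes with the smallest p, and in 50.8% of all promoters.

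**Figure D1:**
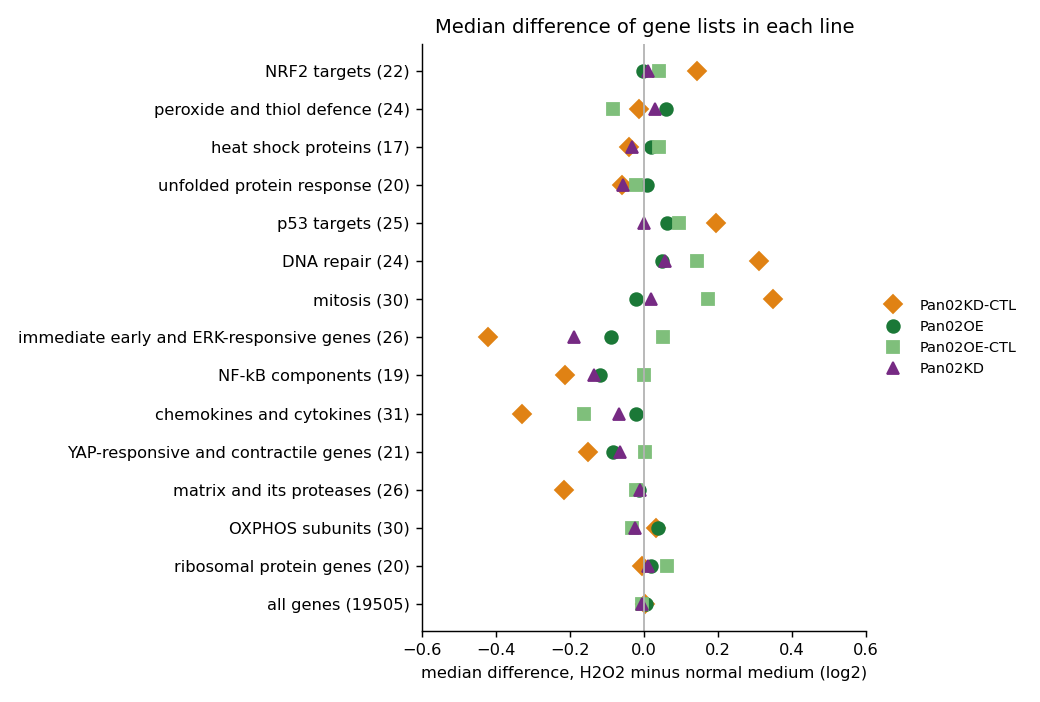
Median difference (H2O2 minus normal medium, log2) of the measured members of each gene list, with 1 point per line. Pan02KD-CTL lies farthest from 0 for the immediate early and ERK-responsive genes (−0.42), the mitosis genes (0.35) and the chemokines and cytokines (−0.33), while the NRF2 targets lie between −0.00 and 0.14 in all lines.

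The lists of DNA damage and division had medians above 0 over the 4 lines, and those of DNA repair, mitosis and DNA replication were smaller without Pan02KD-CTL. DNA repair was at 0.14 over the 4 lines and 0.05 without Pan02KD-CTL, with 2 of 24 members (8.33%) higher and 0 lower in all 4 lines. Mitosis was at 0.12 and 0.05, with −0.02 in Pan02OE and 0.17 in Pan02OE-CTL. DNA replication and S phase was at 0.09 and 0.05, and at 0.04 without Pan02OE-CTL. Of its 30 members 4 (13.3%) read higher and 1 (3.33%) lower in all 4 lines. At an unadjusted p under 0.05 (limma) it had 1 member in each direction. The 25 p53 targets had a median of 0.08, with 5 higher (20%) in all 4 lines (Sesn2, Zmat3, Eda2r, Ddit4 and Xpc) and 1 lower (4%, Plk3). Over all genes 7.34% were higher and 7.52% lower in all 4 lines, and 7.86% and 9.9% of genes above background. The cell cycle inhibitor Cdkn1a and the p53 ligase Mdm2, both well known p53 targets, differed by 0.00 (−0.24 to 0.23) and −0.02 (−0.28 to 0.24). Ddit4, a stress-induced mTORC1 inhibitor, differed by 0.25, 0.67, 0.30 and 0.62, the TNF family receptor Eda2r by 0.31, 0.20, 0.10 and 0.89, and the kinase Plk3 by −0.49, −0.11, −0.62 and −0.86. Of the 24 DNA repair genes, 3 had an unadjusted p under 0.05, all higher: Ogg1, the glycosylase that removes oxidized guanine (0.22, 0.38, 0.27 and 0.37), Brca2 (mean 0.35) and the checkpoint kinase Atr (mean 0.34). That level was reached in the higher direction by 3.28% of all genes. The 30 mitosis genes had 7 members (23.3%) higher in all 4 lines and 0 lower, with Ttk (0.49) and Bub1 (0.42), kinases of the spindle checkpoint, at the smallest p. In the remaining lists the median over the 4 lines stayed between −0.09 and 0.09, the unfolded protein response, heat shock proteins and OXPHOS subunits among them, each within 0.02 of 0.

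Taken line by line, the difference between the media was small in 3 lines and larger in Pan02KD-CTL. With 1 array per medium no test within a line is possible, and 271 genes (1.39%) were at 2-fold or more in Pan02KD-CTL, against 45 (0.231%) in Pan02OE, 33 (0.169%) in Pan02OE-CTL and 50 (0.256%) in Pan02KD. The share of all genes at 2-fold higher was 0.989% in Pan02KD-CTL, against 0.103%, 0.0718% and 0.133% in the other lines, and the share at 2-fold lower 0.4%, against 0.128%, 0.0974% and 0.123%. Of the 271 genes 260 were at 2-fold in no other line. The same held for 38 of the 45 in Pan02OE, 25 of the 33 in Pan02OE-CTL and 43 of the 50 in Pan02KD. Most 2-fold genes were thus unshared in every line. The standard deviation of the difference over all genes was 0.37 in Pan02KD-CTL, against 0.28, 0.27 and 0.28. Among the 8787 genes with a line mean above the background probe sets the counts were 113 in Pan02KD-CTL, against 23, 15 and 14. In all, 382 genes were at 2-fold in some line, 11 at 2-fold in the same direction in at least 2 lines and 1, Gm9958, in at least 3.

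**Figure D2:**
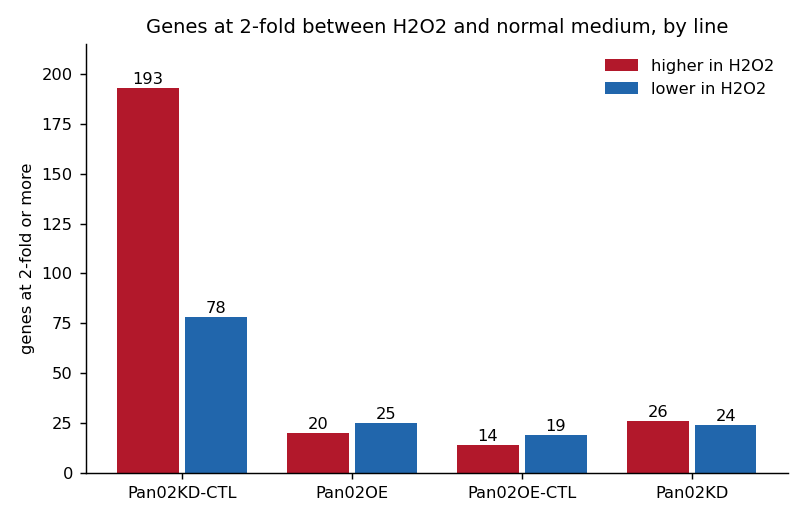
Number of genes at 2-fold or more between H2O2 and normal medium in each line, higher and lower in H2O2 side by side. Pan02KD-CTL has 193 higher and 78 lower, against at most 26 in either direction in the other lines.

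In Pan02OE the genes farthest apart with both arrays above background were the brain-type creatine kinase Ckb (1.30, with 12.53 in H2O2 and 11.23 in normal medium) and the cytokine Il11 (1.30). The tRNA splicing gene Tsen34 (1.10), Grhpr (1.04) and the kinase gene Stk11 (1.02) were also higher by 2-fold or more. Mal, a membrane sorting protein, was at least 1.7-fold higher. Vgf (−1.08) lay at the other end, with Csf2 (at least 1.6-fold lower), the ubiquitin ligase Neurl3 (at least 1.64-fold lower) and the cytokine signaling inhibitor Socs3 (7.43 in H2O2, in the background range, and 8.59 in normal medium). In Pan02OE-CTL Ptdss2 (1.35), Psmg1 (1.18) and the nucleotide hydrolase Nudt14 (1.12) were higher, and Ly6c1 (9.23 in H2O2 and 11.15 in normal medium), the Zscan4f gene (6.46 in H2O2, in the background range, and 7.78 in normal medium), the small proline-rich gene Sprr2k (−1.27) and the lipocalin Lcn2 (−1.16) lower. In the arrays labelled Pan02KD Txnip (1.28), Ptdss2 (1.03) and the Hippo pathway factor Tead2 (0.97) were higher, and the secreted protein gene Bpifb1 (6.78 in H2O2, in the background range, and 8.09 in normal medium), Ckb (−1.29), the deubiquitinase Usp32 (−1.18), Cxcl2 (−1.08) and the small MAF factor gene Maff (−1.07) lower. The differences of Ckb had opposite signs in Pan02OE and Pan02KD.

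The genes shared between lines at 2-fold made small pairs. Ptdss2 was shared by Pan02OE-CTL and Pan02KD, as was Usp32 (−1.07 and −1.18), and Neurl3 by Pan02OE and Pan02KD (−1.19 and −1.05). Pan02KD-CTL shared the higher Txnip with Pan02KD, Csf2 with Pan02OE, and Ly6c1, the natriuretic peptide gene Nppb (−1.07), Sprr2d (−1.12), Sprr2k (−1.08) and Zscan4d with Pan02OE-CTL. Of these, Gm9958 and Zscan4d lay in the background range on all arrays and Sprr2d in Pan02OE-CTL. In Neurl3, Nppb, Csf2 in Pan02OE and Sprr2d in Pan02KD-CTL the H2O2 array lay in that range, so that the size is a lower bound.

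Whether a line's response differed from that of the other 3 was tested for each line in turn with limma. The count was 2 of 19505 genes (0.0103%), both higher, for Pan02KD-CTL, with 2001 (10.3%) at an unadjusted p under 0.05. For Pan02OE, Pan02OE-CTL and Pan02KD 0 genes passed, and 839 (4.3%), 738 (3.78%) and 672 (3.45%) had an unadjusted p under 0.05. The spread in this test comes from the 3 lines other than the one tested.

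Ipw, a noncoding transcript of the imprinted Prader-Willi region, was the farthest apart. It read 10.34 in H2O2 and 5.61 in normal medium in Pan02KD-CTL, at least 7.29-fold higher when the normal medium array is set to the background limit. In the other lines it read 5.34, 5.93 and 5.75 in H2O2, against 5.91, 6.28 and 5.48 in normal medium, all in the background range. The response of Pan02KD-CTL minus the mean of the other 3 was 4.95 (SE 0.34, adjusted p = 0.0138). The 12 nearest measured genes in the order of the reference, 6 on each side, lay between −0.90 (Atp10a) and 0.67 (Gabra5) in Pan02KD-CTL, with the imprinted neighbours Ube3a, Ndn, Magel2, Mkrn3 and Peg12 among them. The other called gene, the vomeronasal receptor Vmn1r250 (2.85, SE 0.24, adjusted p = 0.0313), read 7.18 in H2O2 and 4.49 in normal medium in Pan02KD-CTL, both under the background limit.

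**Figure D3:**
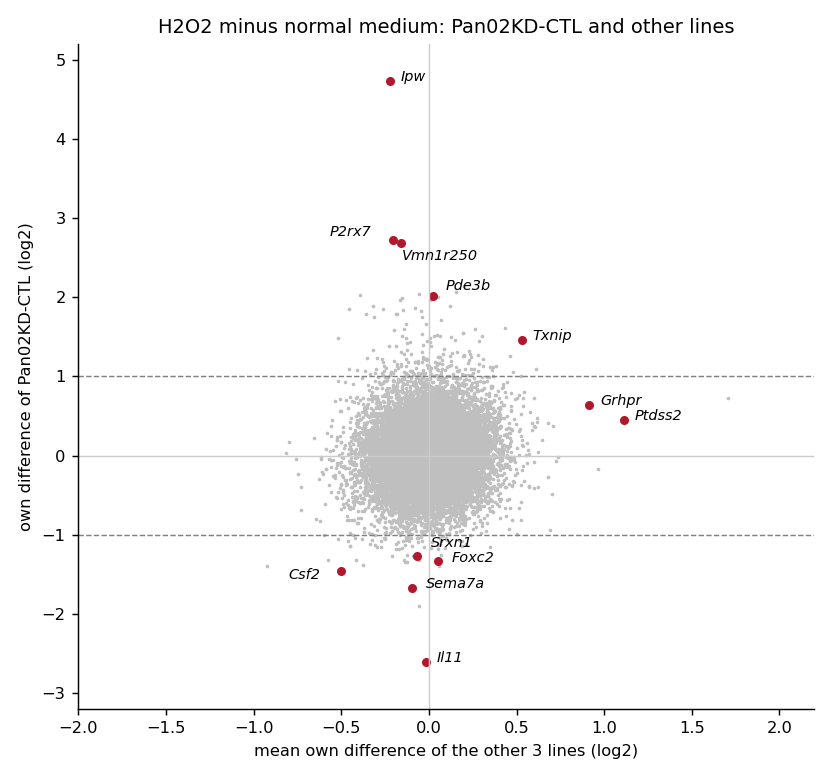
Difference between H2O2 and normal medium (log2) in Pan02KD-CTL on the vertical axis and its mean over the other 3 lines on the horizontal axis, with 1 point for each of 19505 genes and dashed lines at 2-fold. Ipw stands alone at 4.73, and Grhpr and Ptdss2 lie to the right, where the other lines are higher too.

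Several other genes lay next to these without passing in the main fit, and some of them had arrays in the background range. With trend and robust moderation P2rx7, Pde3b, Sema7a and the superoxide dismutase Sod3 (Pan02KD-CTL minus the others −1.18) did pass. In this test 1 line stands alone against the others. P2rx7, an ATP-gated ion channel, read 11.85 in H2O2 and 9.13 in normal medium in Pan02KD-CTL (6.58-fold), and 6.57, 5.91 and 5.44 against 7.37, 5.77 and 5.4 in the other lines, where it was in the background range (line minus the others 2.93, adjusted p = 0.111). The phosphodiesterase Pde3b read 8.71 in H2O2 and 6.69 in normal medium (at least 2.35-fold, 1.99, adjusted p = 0.106), and the fatty acid transporter Slc27a1 11.79 and 9.91 (2.2, adjusted p = 0.339). Lower in Pan02KD-CTL were Sema7a, a membrane-anchored semaphorin, with 9.02 in H2O2 and 10.69 in normal medium (−1.58, adjusted p = 0.232), and the forkhead factor Foxc2 with 8.39 and 9.72 (−1.38, adjusted p = 0.232). Il11, an interleukin-6 family cytokine, read 6.11 in H2O2 and 8.73 in normal medium in Pan02KD-CTL, at least 2.38-fold lower, but 10.54 and 9.24 in Pan02OE, where it was higher. It read 11.30 and 11.67 in Pan02OE-CTL and 6.88 and 7.86 in Pan02KD, and the line minus the others was −2.60 (adjusted p = 0.367).

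Immediate early genes read lower in Pan02KD-CTL and in most members also in Pan02OE and Pan02KD. In Pan02KD-CTL 24 of the 26 members (92.3%) were below 0, against 18, 11 and 21 in the other lines and 49.8% of all genes in Pan02KD-CTL. Egr1 (−1.05) and Fos (−1.04, with 6.77 in H2O2, in the background range, and 7.81 in normal medium) were at 2-fold and Junb at −0.89. Srf, the serum response factor that drives many of these genes, read 8.91 in H2O2 and 10.10 in normal medium in Pan02KD-CTL, against 9.72, 9.58 and 9.60 in H2O2 and 10.40, 9.39 and 9.68 in normal medium in the other lines, and Bcl3, an NF-κB cofactor, differed by −1.26 (line minus the others −1.14, adjusted p = 0.326). Of the 30 mitosis genes 26 were above 0 there, with the cyclin Ccnb2 (10.84 in H2O2 and 9.69 in normal medium) and the kinesin Kif20a (11.52 and 10.43) at 2-fold. The matrix genes had a median of −0.22 in Pan02KD-CTL and −0.02 to −0.01 in the other lines.

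Many 2-fold genes of Pan02KD-CTL were dim: 130 of the 193 higher genes and 24 of the 78 lower ones had both arrays in the background range. Grouped by gene symbol after the values were seen, some families of related members stood out among the higher genes. Of 199 vomeronasal receptors of the Vmn1r type 24 (12.1%) were at 2-fold higher, with a family median of 0.19, and of 22 BTB domain genes of the Btbd35f family 11 (50%), with a median of 1.04 and all 22 members above 0. Only 6 of the Vmn1r and 0 of the Btbd35f genes had a line mean above background, so these sizes carry little information. In the other lines the Btbd35f median was −0.17, 0.07 and −0.18. Of the 1091 olfactory receptors (Olfr) 19 (1.74%) and of 355 zinc finger genes (Zfp) 6 (1.69%) were at 2-fold higher. These shares were much closer to the 0.989% over all genes. Only 3 of the Olfr genes had a line mean above background. In the other lines each family had 0 to 3 members at 2-fold higher. Members of such families can share probe sequence, so they are not separate observations. Vmn1r100 and Vmn1r148, for example, have equal values on all 8 arrays. In all, 39 genes have equal values with some other gene, and 4 of these 39 were at 2-fold higher in Pan02KD-CTL.

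**Figure D4:**
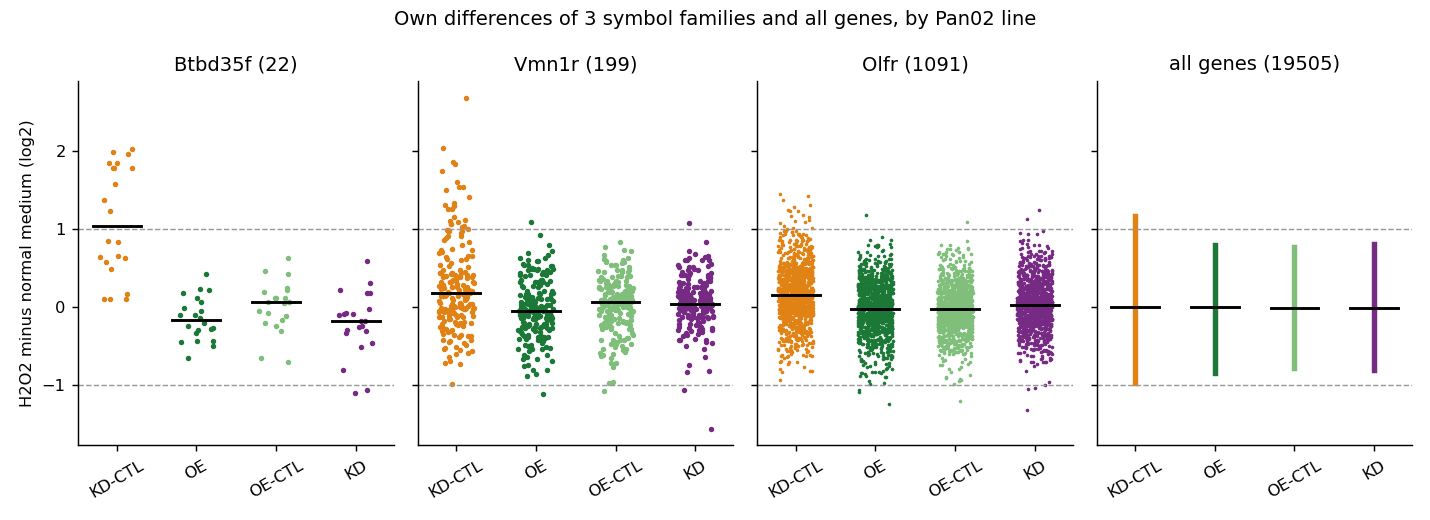
Differences (H2O2 minus normal medium, log2) of members of 3 symbol families by line, with 1 point per gene, a bar at the median, and the range of the middle 99% of all genes. The Btbd35f genes have a median of 1.04 in Pan02KD-CTL and −0.18 to 0.07 in the other lines.

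Control probe sets moved in the same line. Of 5222 negative controls 930 (17.8%) differed by 2-fold or more between the Pan02KD-CTL arrays, against 632 (12.1%), 550 (10.5%) and 678 (13%) in the other lines, and of 2634 gene probe sets without a name 132 (5.01%), against 10, 22 and 19. The upper decile of the negative controls was 8.58 in H2O2 and 8.26 in normal medium in Pan02KD-CTL, against 8.52 and 8.54 in Pan02OE, 8.47 and 8.45 in Pan02OE-CTL and 8.40 and 8.23 in Pan02KD. The area under the curve that separates positive from negative controls was 0.887 in H2O2 and 0.9 in normal medium in Pan02KD-CTL and 0.892 to 0.906 on the other arrays. The part of these shifts in the result for Pan02KD-CTL was not tested. With each array centred on its median the 2-fold split of Pan02KD-CTL was 153 higher and 122 lower (55.6% higher) in place of 193 and 78 (71.2%), and with cyclic loess 186 and 86 (68.4%). After centring, the family counts were 11 for Btbd35f, 21 for Vmn1r, 15 for Olfr and 2 for Zfp, the last in place of 6.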

How the data were processed

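RNA of 4 transduced Pan02 lines in normal medium or 100 μM H2O2 (24 h) was hybridized to Clariom S mouse arrays, 1 per line and medium. The deposited values are log2 signals that the authors made with the Transcriptome Analysis Console, whose version, summarization and normalization are not given in the sources used here. No further normalization was applied. Of 28846 probe sets 6640 are controls, 19572 carry a gene symbol and 2634 carry none, and the brightest probe set of each gene, by its mean over the arrays, was used, giving 19505 genes. Arrays have no read depth, and their number limits the precision.

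The limma package (3.58.1, R 4.3.3) was used to fit the differences, with line as a block and medium tested (3 residual and 6.17 prior degrees of freedom), without Pan02KD-CTL (2 and 5.76), and for each line against the other 3 (2 residual degrees of freedom). Benjamini-Hochberg adjustment was over all genes, at a threshold of 0.05. A fold is called at least so large where 1 array of the pair was at or below its brightest background probe set, which then takes its place. The scripts were first tested on simulated data.

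The members, the 34 gene lists and the rule for naming genes were chosen with earlier results of these data known. Named were Nlrx1, called genes, the 10 genes with the smallest p in each direction of both fits (mean above the median, no predicted symbols), the 10 largest differences of each line with an array above background, the 3 largest members of each list, and 14 fixed oxidant and p53 genes. Other names complete a small count and, like the families, were chosen after their values were seen. Alternatives were median centring, cyclic loess, 2 signal filters, all probe sets, trend and robust moderation, no line block, leaving out each line, and a 1.5-fold limit. Promoters and gene order came from RefSeq tables of GRCm38.p6. Python 3.11.15 and matplotlib 3.10.9 drew the figures.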

Additional observations from a re-analysis of the deposited data

Results flagged for a closer look

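In 25 of 121 sets of 4 line values, 1 line lay far from the other 3 relative to the range of the set (chance gives about 1 in 20 for sets that were not chosen by their values), and the responses of 2 genes differed between Pan02KD-CTL and the other lines by test. Families and many genes were among these sets because of their differences in a line, so the number of sets that stood apart is not a measure of excess. Most of them share the same 2 Pan02KD-CTL arrays and are not independent. No explanation was tested.

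For Pan02KD-CTL against the other 3 lines, the 2-fold genes numbered 271 against 33 to 50, the standard deviation of the differences was 0.37 against 0.27 to 0.28, the distance between the arrays of the line was 51.7 against 37.7 to 39.1 (Euclidean, log2 over all genes), and unnamed probe sets at 2-fold numbered 132 against 10 to 22. Among 34 lists the median stood apart for BCL-2 family and cell death genes (0.18 against 0.00 to 0.03), matrix genes (−0.22 against −0.02 to −0.01) and leukocyte markers (0.08 against −0.06 to −0.04, 0 of 9 markers above background).

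Of 660 symbol families of 5 or more genes, those kept for having 3 or more genes at 2-fold higher in Pan02KD-CTL were, with that count, Gm (30), Vmn1r (24), Olfr (19), Btbd35f (11), Zfp (6), Krtap (5), Vmn2r (5), Mup (3) and Speer (3).

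Of 72 gene differences 9 stood apart. In Pan02KD-CTL these were Ipw (4.73 against −0.58 to 0.27), Vmn1r250 (2.69 against −0.31 to −0.03), Pde3b (2.02 against −0.12 to 0.11), Foxc2 (−1.33 against 0.04 to 0.07), Il1rn (0.68 against −0.67 to −0.46), Gclm (0.40 against −0.09 to −0.07) and Gm9958 (0.73 against 1.66 to 1.80). In Pan02KD they were Cbr2 (−0.31 against −0.82 to −0.80) and Sod1 (0.22 against 0.07 to 0.08). The tested differences of Pan02KD-CTL from the other lines were 4.95 for Ipw and 2.85 for Vmn1r250.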

How the results depend on the processing

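The 4-line comparison called 0 genes under both scalings, both signal filters, all probe sets and no line block, 2 with trend and robust moderation, and 0 to 1 when a line was left out. The gene called without Pan02KD-CTL was Gm9958. The 3-line comparison called 0 with either signal filter, 8 with trend and robust moderation, and 0 to 1 when a line was left out (0 without Pan02KD). For Pan02KD-CTL against the other lines 1 gene passed with either filter, 15 with all probe sets and 56 with trend and robust moderation. At 2-fold, genes above the 40th percentile of signal numbered 163 in Pan02KD-CTL, against 26 in Pan02OE, 23 in Pan02OE-CTL and 20 in Pan02KD. With a line mean above background they numbered 113, against 23, 15 in Pan02OE-CTL and 14, and with an array above it (added after seeing the data) 117, against 17, 16 and 12. With all probe sets there were 409, against 57 in Pan02OE, 55 in Pan02OE-CTL and 69 in Pan02KD, and at 1.5-fold 2029, against 906, 744 and 864. The cause of these changes was not tested, other than that filters test fewer genes.

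Signs turned only for genes near 0. With cyclic loess Hmox1 was 0.011 and Cdkn1a 0.019. With a line left out Hmox1 ranged from −0.064 to 0.040, Nqo1 from −0.244 to 0.059, Gclm from −0.078 to 0.088, Slc7a11 from −0.079 to 0.156, Cdkn1a from −0.032 to 0.025 and Mdm2 from −0.097 to 0.050. Of the named-gene values 590 kept sign and side of the threshold, and 9 came past it, 8 of them with trend and robust moderation. The line was the block in every fit except the alternative with no line block, and replicate numbers were not given in the labels used here.

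Signal over background limits the rest: 10718 of 19505 genes never had a line mean above the brightest background probe set, and their differences carry little information on size. A single array per line and medium gives no error within a line.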
